A study of Homo sapiens with 8 samples.

Results

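PCNA peaks on the autosomes were compared between MCF10A and TUBG-shRNA-MCF10A cells harvested 1 h after release from a thymidine block. The autosomal lists held 475 MCF10A peaks and 260 TUBG-shRNA-MCF10A peaks, 735 of the 4020 peaks in the 4 lists of the series. A peak was called common if it and a peak of the other list overlapped by at least 25% of the width of both, and otherwise it was assigned to 1 cell population only. This gave 143 common and 332 MCF10A-only peaks in the MCF10A list, and 148 common and 112 TUBG-shRNA-only peaks in the other. The common numbers differ because 6 MCF10A peaks and 1 TUBG-shRNA-MCF10A peak had more than 1 partner.

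The study asked where PCNA sits on chromatin early in S phase, and whether this differs when γ-tubulin is lowered. MCF10A is an immortalized epithelial line from human breast that does not form tumors. Both populations were of this line, held at the start of S phase by a double thymidine block, released for 1 or 2 h and precipitated with the same PCNA antibody (FL-261). TUBG-shRNA-MCF10A cells additionally carried a stably transfected short hairpin RNA against γ-tubulin and were kept under 100 µg/ml zeocin, which was given for these cells only. Hence, the hairpin and the drug selection cannot be told apart in this comparison. A hairpin lowers its target without removing the gene, and no γ-tubulin level is contained in the peak lists, so the knockdown could not be checked here.

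PCNA is the ring-shaped sliding clamp that encircles DNA and tethers replicative polymerases to the template, and it also serves as a platform for repair proteins. It is loaded at replication forks by replication factor C. γ-Tubulin is best known for nucleating microtubules at centrosomes, but a part of it is found in the nucleus. Pericentromeres flank the centromere and are rich in satellite repeats, of which many copies are missing from or collapsed in the hg19 genome assembly. Reads from such repeats pile up on the few copies the assembly holds, in the immunoprecipitate and in the control alike, and for this reason the local background is given beside the peaks.

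Each list was called on 2 ChIP libraries together against whole-cell lysate, so the spread between replicates is unknown and no test between lists was made. Intervals are 95% intervals (exact binomial for ratios, Wilson for shares) that cover counting error only and treat neighboring peaks as independent, which they are not. The shortest peak, which reflects the fragment length set in peak calling, had a length of 121 bp (MCF10A) and 112 bp (TUBG-shRNA-MCF10A). The lowest background derived at any summit of the list was 1.88 reads in MCF10A and 1.36 in TUBG-shRNA-MCF10A. The genome-wide background itself is not given in the lists. Library depths are unknown. A peak that a list lacks may have been too weak to be called at this depth, and its absence from the cells is not shown.

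PCNA peaks were more numerous in MCF10A than in the knockdown, both in pericentromeres and on the arms. The ratio of peak numbers was 1.83 (1.57 to 2.13) on all autosomes. In pericentromeres, here the sequence within 5 Mb of the unsequenced gap at the centromere, there were 406 MCF10A peaks and 220 TUBG-shRNA-MCF10A peaks, a ratio of 1.85 (1.56 to 2.18). On the arms, 69 and 40 peaks gave a ratio of 1.73 (1.15 to 2.61). The 2 ratios had overlapping intervals, and pericentromeres held a similar part of both lists, 85.5% of the MCF10A peaks (82.0 to 88.4) and 84.6% of the TUBG-shRNA-MCF10A peaks (79.7 to 88.5). When the q-value was limited to 1e-10, the lists kept 168 and 55 autosomal peaks, a ratio of 3.05. The q-value depends on depth, and with a fold enrichment of at least 5 instead, the lists held 50 and 25 peaks.

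The excess in MCF10A was not spread evenly over chromosomes. Chromosome 4 held the most MCF10A peaks, 131 against 62 in TUBG-shRNA-MCF10A, a ratio of 2.11 (1.55 to 2.91). On chromosome 2, there were 74 and 43 peaks (ratio 1.72, 1.17 to 2.57), and on chromosome 10, 69 and 37 (1.86, 1.23 to 2.86). In contrast, chromosome 16 held 60 MCF10A peaks and 61 TUBG-shRNA-MCF10A peaks, a ratio of 0.984 (0.677 to 1.43). The interval of chromosome 16 lay below that of chromosome 4 and overlapped those of chromosomes 2 and 10. Chromosome 16 thus made up 12.6% of the MCF10A list and 23.5% of the TUBG-shRNA-MCF10A list, and without it the ratio over the other autosomes was 2.09 (1.76 to 2.48).

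On smaller numbers, chromosome 8 held 27 MCF10A peaks and 7 TUBG-shRNA-MCF10A peaks (ratio 3.86, 1.64 to 10.5), chromosome 21 held 19 and 6 (3.17, 1.22 to 9.69) and chromosome 7 held 18 and 6 (3, 1.14 to 9.23). Chromosome 5 had 13 and 3 peaks, and its 6 pericentromeric peaks were all in MCF10A. Chromosomes 1 and 20 each had 13 and 5 peaks, with intervals that include 1. Of the 12 chromosomes with at least 10 peaks in both lists together, chromosome 16 was the only one with fewer peaks in MCF10A. Chromosomes 15, 19 and 22 had no MCF10A peak and 1, 2 and 2 TUBG-shRNA-MCF10A peaks, while chromosome 12 had 4 MCF10A peaks and none in the knockdown.

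**Figure D1:**
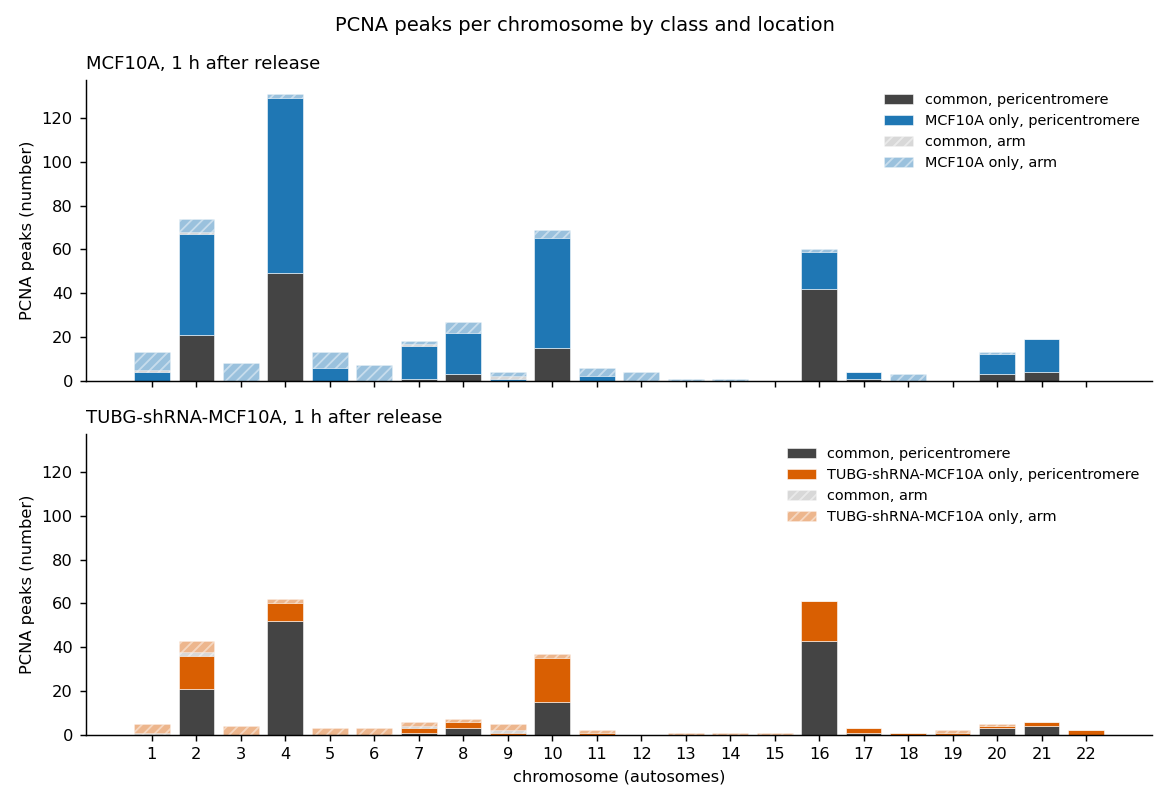
Number of autosomal PCNA peaks per chromosome at 1 h in MCF10A (upper panel) and TUBG-shRNA-MCF10A (lower panel), stacked by class (gray, common; color, in that population only) and location (solid, within 5 Mb of the centromere gap; hatched, arm). Chromosome 4 held 131 peaks in MCF10A and 62 in the knockdown, while chromosome 16 held 60 and 61.

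The common peaks were mostly pericentromeric. By the criterion that defines the classes, 30.1% of the MCF10A peaks (26.2 to 34.4) and 56.9% of the TUBG-shRNA-MCF10A peaks (50.8 to 62.8) were common. These shares follow in part from the unequal lengths of the lists, and when the MCF10A list was reduced to its 260 strongest peaks, 32.3% of the TUBG-shRNA-MCF10A peaks remained common. In pericentromeres, 139 of 406 MCF10A peaks (34.2%, 29.8 to 39.0) and 143 of 220 TUBG-shRNA-MCF10A peaks (65.0%, 58.5 to 71.0) were common. On the arms, only 4 of 69 (5.80%, 2.28 to 14) and 5 of 40 (12.5%, 5.46 to 26.1) were, and the intervals of arm and pericentromere did not overlap in either list. Of the common peaks, 97.2% of those in MCF10A and 96.6% of those in TUBG-shRNA-MCF10A were pericentromeric, in comparison with 80.4% of the MCF10A-only peaks (75.8 to 84.3) and 68.8% of the TUBG-shRNA-only peaks (59.7 to 76.6).

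The low share on the arms rests on where the gap of chromosome 16 is drawn. This gap was taken to include the unsequenced heterochromatin next to the centromere, as on chromosomes 1 and 9, a choice made after the data were seen. With the centromere gap alone, the peaks next to the heterochromatin of chromosome 16 counted as arm peaks, and the common share on the arms was 35.2% in MCF10A and 49.5% in TUBG-shRNA-MCF10A. In MCF10A the order then turned round, as 28.3% of its pericentromeric peaks were common, and pericentromeres held 69.2% of its common peaks against 75.6% of the MCF10A-only peaks, both with overlapping intervals. No peak of either list lay between 4.46 and 6.14 Mb from a gap, so no peak sat close to the limit of 5 Mb.

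Common shares also differed between chromosomes. On chromosome 16, 42 of the 60 MCF10A peaks (70.0%) and 43 of the 61 TUBG-shRNA-MCF10A peaks (70.5%) were common. On chromosome 4, 52 of the 62 TUBG-shRNA-MCF10A peaks (83.9%) lay at an MCF10A peak, but only 49 of the 131 MCF10A peaks (37.4%) had a partner. Thus, on chromosome 4 the knockdown list was largely contained in the MCF10A list. Chromosome 10 was different, with 15 of 69 MCF10A peaks (21.7%) and 15 of 37 TUBG-shRNA-MCF10A peaks (40.5%) common, and chromosome 2 lay between, with 22 of 74 (29.7%) and 23 of 43 (53.5%). None of the 13 MCF10A peaks on chromosome 5 had a partner.

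A few short stretches held much of both lists. The 3 stretches of 1 Mb with the most peaks lay on chromosome 4 from 49 to 50 Mb, on chromosome 16 from 46 to 47 Mb and on chromosome 10 from 42 to 43 Mb. Together they held 227 MCF10A peaks (47.8%) and 144 TUBG-shRNA-MCF10A peaks (55.4%). They held 72.0% of the common peaks of MCF10A, but only 37.3% of the MCF10A-only and 33.0% of the TUBG-shRNA-only peaks.

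In the stretch of chromosome 4, peaks spanned 566 kb, from 49093337 to 49659739. There were 129 peaks in MCF10A, 49 of them common, and 60 in TUBG-shRNA-MCF10A, 52 of them common. The 80 MCF10A-only peaks here stood against 8 TUBG-shRNA-only peaks. Most of the excess lay in the 100 kb from 49.1 to 49.2 Mb, with 82 MCF10A peaks and 37 TUBG-shRNA-MCF10A peaks, of which 51 and 4 had no partner. A second group from 49.6 to 49.7 Mb held 35 and 19 peaks, of which 20 and 3 had no partner. The median local background was 22.6 reads in MCF10A and 31.9 in TUBG-shRNA-MCF10A, and the median fold enrichment over that background was 2.93 and 2.50.

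In the stretch of chromosome 16, all peaks lay within 113 kb at the edge of the heterochromatin gap, from 46385882 to 46499079. The lists were of nearly equal length here, 53 peaks in MCF10A (13 without a partner) and 52 in TUBG-shRNA-MCF10A (11 without a partner). This was the stretch with the highest background of the 3, with a median of 126 reads in MCF10A and 121 in TUBG-shRNA-MCF10A, and its peaks rose little above it, with a median fold enrichment of 1.65 and 1.60. High background and equal peak numbers thus went together in this stretch, but not in every stretch of high background. On chromosome 8 from 46 to 47 Mb, 9 MCF10A and 3 TUBG-shRNA-MCF10A peaks stood on a median of 87.6 and 86.1 reads. On chromosome 2 from 92 to 93 Mb, 6 and 7 peaks stood on 96.4 and 87.0 reads. The part of the background in the equal numbers was not tested.

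The stretch of chromosome 10 held 45 MCF10A peaks and 32 TUBG-shRNA-MCF10A peaks, with 14 common in each list. Here 18 peaks were in the knockdown only, more than in either of the other stretches, beside 31 in MCF10A only. Over the peaks called in each list, the median background was 16.7 reads in MCF10A and 45.1 in TUBG-shRNA-MCF10A, and the median fold enrichment was 3.25 and 2.02. These medians are over different peaks. At the common peaks of the stretch, the median background was closer, 30.5 reads in MCF10A and 34.4 in TUBG-shRNA-MCF10A. Among the TUBG-shRNA-only peaks of this stretch the median background was 75 reads, higher than at the common peaks. Among the MCF10A-only peaks it was 13.3 reads, lower than at the common peaks. Populations therefore differed here in which peaks were called, and the unshared peaks of each list stood on backgrounds that were not alike.

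Further pericentromeric stretches differed in how many of their peaks were in MCF10A. On chromosome 7 from 61 to 62 Mb, there were 12 MCF10A and 2 TUBG-shRNA-MCF10A peaks, none of them common, and on chromosome 10 from 38 to 39 Mb, 11 and 1, again none common. On chromosome 2, the 3 stretches from 89 to 92 Mb held 26, 20 and 15 MCF10A peaks in order of position, and 9, 8 and 12 TUBG-shRNA-MCF10A peaks. On chromosome 21, the stretch from 10 to 11 Mb held 18 and 6 peaks. The stretches of chromosome 2 from 92 to 93 Mb, with 6 and 7 peaks, and of chromosome 16 from 33 to 34 Mb, with 4 and 5, had slightly more peaks in the knockdown.

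**Figure D2:**
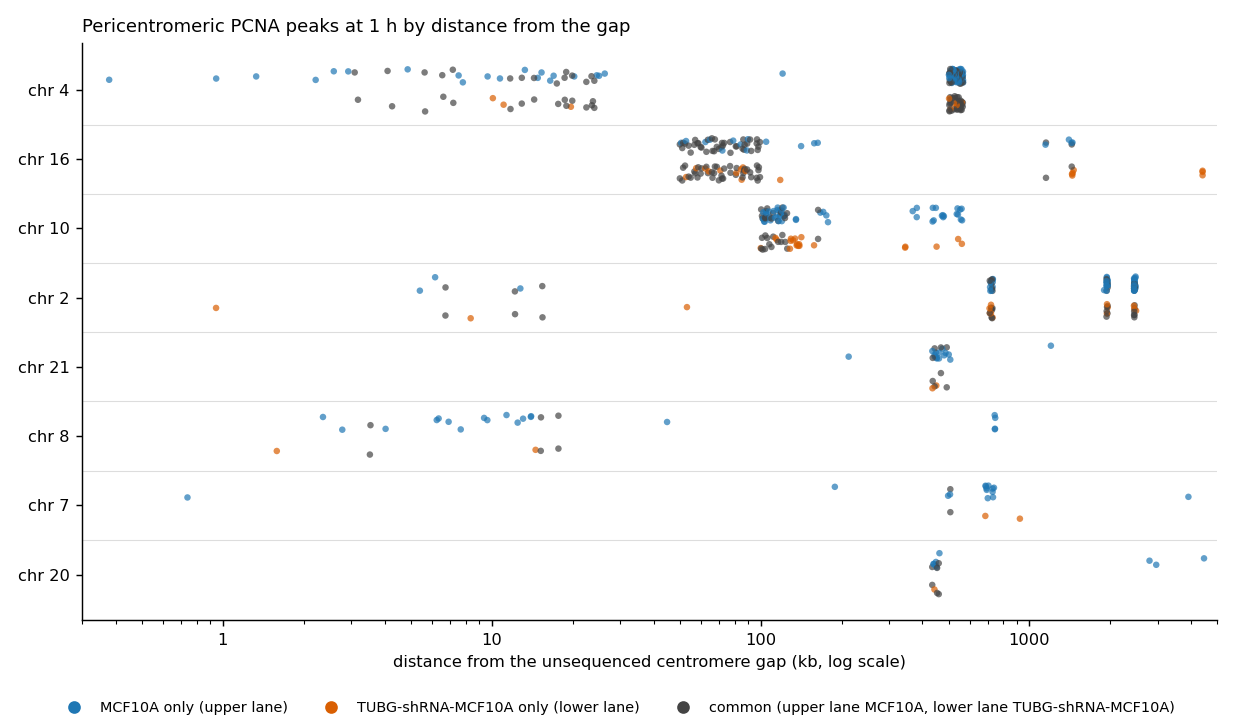
Distance in kb (log scale) of each pericentromeric PCNA peak from the unsequenced centromere gap on 8 chromosomes, with MCF10A peaks in the upper lane and TUBG-shRNA-MCF10A peaks in the lower lane of each chromosome (gray, common; blue, MCF10A only; orange, TUBG-shRNA-MCF10A only). Points are jittered vertically. Peaks sit in dense groups shared by both lists, such as the 53 and 52 peaks on chromosome 16, and chromosomes 2, 8, 10 and 21 have many blue and fewer orange points.

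Both lists were clustered, the common peaks most. Another peak of the same list lay within 10 kb of 139 of the 143 common MCF10A peaks (97.2%, 93.0 to 98.9) and of 141 of the 148 common TUBG-shRNA-MCF10A peaks (95.3%, 90.6 to 97.7). Within each list the share was lower for unshared peaks, 250 of 332 MCF10A-only (75.3%, 70.4 to 79.6) and 63 of 112 TUBG-shRNA-only peaks (56.2%, 47.0 to 65.1). The MCF10A list is longer and so offers more neighbors, and shares are therefore not directly comparable between the lists. Location mattered as well. Within pericentromeres, 245 of 267 MCF10A-only peaks (91.8%) and 62 of 77 TUBG-shRNA-only peaks (80.5%) had such a neighbor, whereas on the arms 5 of 65 and 1 of 35 did. With neighbors at most 1 kb away, the shares fell to 83.9% and 64.9% for the common and to 52.4% and 36.6% for the unshared peaks, in the order MCF10A and TUBG-shRNA-MCF10A.

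When peaks at most 10 kb apart were joined, the MCF10A list formed 117 clusters, 86 of them single peaks, and the TUBG-shRNA-MCF10A list formed 77, of which 56 were single. Clusters of at least 3 peaks numbered 23 in MCF10A and held 78.5% of its peaks. In TUBG-shRNA-MCF10A there were 11, which held 70.8%. The cluster with the most peaks in MCF10A had 93, on chromosome 4 from 49093337 to 49158624, and the one in TUBG-shRNA-MCF10A had 51, on chromosome 16 from 46385891 to 46435437. Therefore, the leading cluster of each population was on a different chromosome.

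Many peaks without a partner lay beside peaks of the other population. In pericentromeres, 207 of 267 MCF10A-only peaks (77.5%, 72.2 to 82.1) and 62 of 77 TUBG-shRNA-only peaks (80.5%, 70.3 to 87.8) had a peak of the other list within 10 kb, and 125 (46.8%) and 38 (49.4%) had one within 1 kb. Only 7 and 9 of them overlapped it, by less than the minimum. On the arms, none of the 65 MCF10A-only peaks and 1 of the 35 TUBG-shRNA-only peaks had a peak of the other list within 100 kb. Peaks of one population only thus mostly sat near peaks of the other in pericentromeres, and far from them on the arms.

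Joining the peaks of both lists at most 1 kb apart gave 298 regions, of which 72 (24.2%) held peaks of both populations, 163 of MCF10A only and 63 of TUBG-shRNA-MCF10A only. The 72 shared regions contained 296 MCF10A peaks and 188 TUBG-shRNA-MCF10A peaks. MCF10A had more peaks than the knockdown in 31 of them, fewer in 9 and the same number in 32. The longer MCF10A list thus came from more peaks per shared region and from more regions of its own. With peaks within 1 kb of the same list joined first, the lists held 240 and 166 regions, and the ratio between them was 1.45.

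The classes differed in width, strength and background. Since the classes depend on which peaks passed the authors' threshold in both lists, these values describe the classes and are not a test. Common peaks were wide, with a median of 209 bp in MCF10A and of 159 bp in the knockdown, in comparison with 149 bp for MCF10A-only and 132 bp for TUBG-shRNA-only peaks. Median summit height was 93 reads for common MCF10A peaks and 52 for MCF10A-only peaks. The corresponding values in the knockdown were 91 and 53 reads. Common peaks also stood on a higher background, 34.4 reads against 14.8 in MCF10A and 40.6 against 18.2 in TUBG-shRNA-MCF10A. Their median fold enrichment was lower, 2.47 against 3.39 in MCF10A and 2.20 against 2.83 in TUBG-shRNA-MCF10A. These contrasts depended in part on location. In pericentromeres alone, median fold enrichment in MCF10A was 2.47 for common and 3.18 for MCF10A-only peaks. In the knockdown, the median of the pericentromeric TUBG-shRNA-only peaks was 2.27, only slightly above that of the common peaks there. Their median backgrounds were 30.6 reads and, for the common peaks, 40.6 reads.

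The median −log10 q-value hardly separated the classes, at 8.38 for common and 7.96 for MCF10A-only peaks, and at 5.96 for common and 5.56 for TUBG-shRNA-only peaks. A fold enrichment of at least 5 was reached by 47 of 332 MCF10A-only peaks (14.2%) and 22 of 112 TUBG-shRNA-only peaks (19.6%), but by only 3 common peaks in each list. Of these unshared peaks, 21 of the 47 in MCF10A and 17 of the 22 in the knockdown lay on arms. Steep peaks over a low background were thus mostly seen in 1 population, and those of the knockdown lay mostly on arms.

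The common share was read across 4 equal groups of peaks ranked by local background. In MCF10A it was 3.36% in the group with the lowest background, then 18.5%, 40.7% and 58.0% in the group with the highest. In TUBG-shRNA-MCF10A it was 21.5%, 61.5%, 78.5% and 66.2%, so the highest group was not the most shared. Among the pericentromeric MCF10A peaks alone, ranked in the same way, the shares also rose, from 8.82% over 22.8% and 44.6% to 60.8%. In TUBG-shRNA-MCF10A they were 41.8%, 80.0%, 70.9% and 67.3%, highest in the second group. Ranked by −log10 q-value, the shares in MCF10A were 25.2%, 31.1%, 22% and 42.0%, with no steady rise, and in TUBG-shRNA-MCF10A they lay between 53.8% and 60.0%. Ranked by width, they rose from 7.56% to 54.6% in MCF10A and from 33.8% to 73.8% in TUBG-shRNA-MCF10A.

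**Figure D3:**
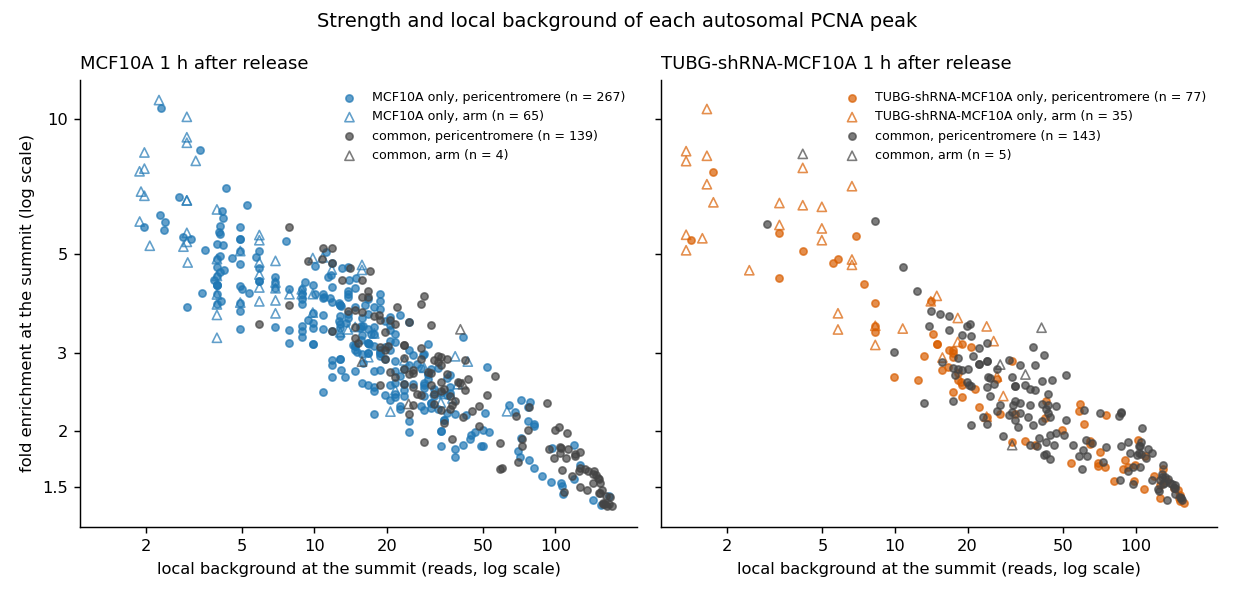
Fold enrichment at the summit against local background in reads (both log scales) for each autosomal PCNA peak at 1 h, in MCF10A (left) and TUBG-shRNA-MCF10A (right), by class (gray, common; color, in that population only) and location (filled circles, pericentromere; open triangles, arm). Common peaks gather at high background and low fold enrichment (median 34.4 reads and 2.47 in MCF10A), and arm peaks at low background and high fold enrichment.

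At common peaks, PCNA enrichment was slightly lower in the knockdown. The comparison used the 142 pairs in which each peak was the other's best overlap. Median fold enrichment was 2.47 in MCF10A and 2.20 in TUBG-shRNA-MCF10A. Pair by pair, the ratio of TUBG-shRNA-MCF10A to MCF10A had a median of 0.955, with quartiles of 0.802 and 1.04, and was below 1 in 90 pairs and above 1 in 52. A shift of at least 1.5 times was seen in few pairs, 13 lower (9.15%) and 3 higher (2.11%) in the knockdown. The fragment lengths and backgrounds of the lists, which enter the fold enrichment, were not the same.

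The shift differed between chromosomes. On chromosome 4, 39 of 48 pairs were lower in TUBG-shRNA-MCF10A, with a median ratio of 0.855. On chromosomes 2 and 10, the median ratio was 0.883 over 22 pairs and 0.912 over 15. In contrast, on chromosome 16, 25 of 42 pairs were higher in the knockdown, with a median ratio of 1.02. The pairs of chromosome 16 stood at a median background of 130 reads in MCF10A and 117 in TUBG-shRNA-MCF10A in these pairs.

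Summits of most common pairs lay close together, which the required overlap favors. They were a median of 10 bp apart and within 50 bp of each other in 117 of 142 pairs (82.4%), with a maximum of 414 bp. The MCF10A peak was wider in 115 pairs, with a median width of 210 bp against 159.5 bp, and had the higher −log10 q-value in 104. In reads not adjusted for the unknown depths, summit heights had a median of 94 in MCF10A and 91 in TUBG-shRNA-MCF10A, over backgrounds of 34.4 and 40.6 reads.

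**Figure D4:**
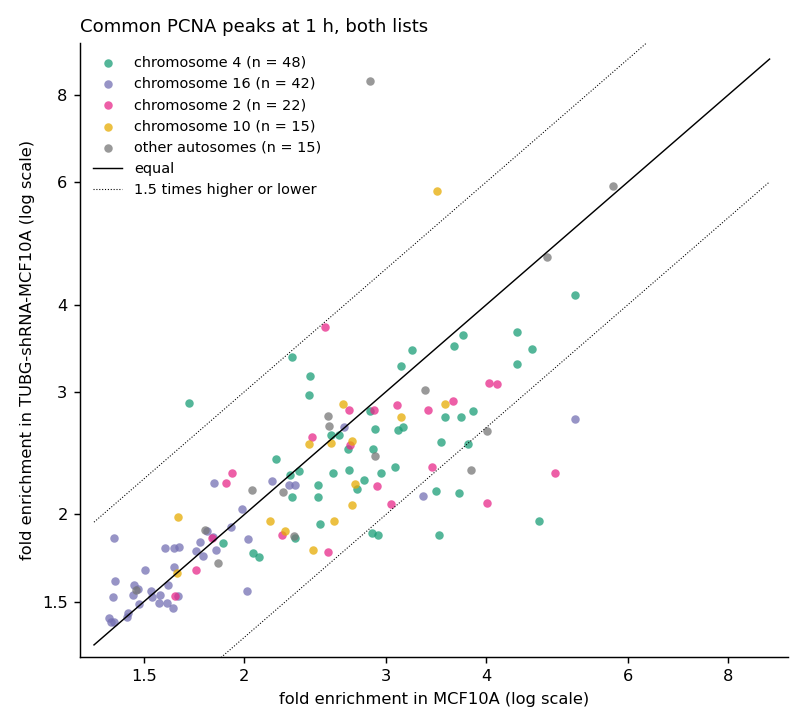
Fold enrichment of the 142 common PCNA peak pairs in MCF10A (horizontal, log scale) and TUBG-shRNA-MCF10A (vertical, log scale), colored by chromosome, with the line of equality and dotted lines at 1.5 times. Most chromosome 4 pairs lie below equality (39 of 48) and chromosome 16 pairs gather at low values on both sides of it (25 of 42 above).

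Among the common pairs, the one with the strongest support in both lists lay on chromosome 2 (89869779 to 89870036 in MCF10A), with 118 summit reads in MCF10A and 117 in TUBG-shRNA-MCF10A. Its fold enrichment was 4.03 and 3.08, over a background of 28.5 and 37.3 reads. The pair on chromosome 20 at 29822904 had a fold enrichment of 5.75 in MCF10A and 5.92 in the knockdown, and that on chromosome 21 at 10844113 had 4.76 and 4.67. Both pairs on chromosome 16 among the 5 strongest, at 46417237 and 46422047, were also nearly equal, with 2.66 and 2.67, and with 2.31 and 2.21. Of these 5 pairs, the chromosome 2 pair alone was lower in the knockdown by more than 5%.

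The pair with the largest fall lay inside the chromosome 4 cluster, from 49125363 to 49125608 in MCF10A. Its fold enrichment was 4.65 in MCF10A and 1.95 in TUBG-shRNA-MCF10A, a ratio of 0.420. Summit reads were 69 and 56, and the background was 14 and 28.2 reads. In these reads, which are not adjusted for depth, the background differed more than the summit did. The next 2 were on chromosome 2, at 90389411 with a ratio of 0.472 and at 91604642 with a ratio of 0.519. The largest rise was on an arm, on chromosome 7 from 24044086 to 24044218, where fold enrichment was 2.87 in MCF10A and 8.36 in TUBG-shRNA-MCF10A, a ratio of 2.92. There too, in unadjusted reads, the summits were close, 47 and 42 reads, and the backgrounds were not, 15.7 and 4.14 reads. The following rises were on chromosome 4 at 49120840, with a ratio of 1.69 and summits 414 bp apart, and on chromosome 10 at 39091081, with a ratio of 1.67.

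Arm peaks were few, scattered and mostly seen in 1 population. MCF10A had 69 arm peaks on 17 chromosomes with at most 9 on any of them, and TUBG-shRNA-MCF10A had 40 on 16 chromosomes with at most 7. The 65 MCF10A-only arm peaks had a median width of 130 bp, 35 summit reads, a background of 5.90 reads and a fold enrichment of 4.31. The 35 TUBG-shRNA-only arm peaks were alike, with 119 bp, 32 reads, 5.80 reads and 4.85. A fold enrichment of at least 5 was reached by 21 of 65 and 17 of 35. In comparison, pericentromeric peaks without a partner had a median fold enrichment of 3.18 over 16.2 reads in MCF10A and of 2.27 over 30.6 reads in TUBG-shRNA-MCF10A.

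The 4 arm sites common to both lists lay on chromosomes 1, 2, 7 and 9. That on chromosome 2 (109815834 to 109816324) was covered by 1 peak in MCF10A with a fold enrichment of 3.39, and by 2 peaks in TUBG-shRNA-MCF10A with 3.41 and 2.82. It was found in both 2 h lists. The site on chromosome 9 (72653209 to 72653335) was enriched 2.55-fold in MCF10A and was also in both 2 h lists. The chromosome 7 site described above was in neither.

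The MCF10A-only peak with the highest −log10 q-value, 24.6, was pericentromeric, on chromosome 5 from 49438307 to 49438450 (3.26-fold, 137 reads). The next lay on the arms. These were on chromosome 12 from 79438307 to 79438450 (10.1-fold, 39 reads), on chromosome 11 from 95604454 to 95604599 (11-fold, 35 reads) and on chromosome 2 from 123105935 to 123106063 (4.72-fold, 78 reads). A pericentromeric peak on chromosome 20 from 23409249 to 23409417 followed (10.6-fold, 34 reads). The peaks on chromosomes 12, 11 and 20 stood on low backgrounds of 2.95, 2.26 and 2.30 reads, where the lowest of the list was 1.88. The peaks on chromosomes 5, 11 and 2 were found again in MCF10A at 2 h, and none of the 5 was found in TUBG-shRNA-MCF10A at 2 h. Of all 332 MCF10A-only peaks, 76.5% were in the former list and only 22.6% in the latter.

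Of the TUBG-shRNA-only peaks, the 5 with the highest −log10 q-values were all on arms. The first lay on chromosome 3 from 106697224 to 106697344 (7.08-fold, 53 reads), reached 22.7 and was listed in MCF10A at 2 h. Those on chromosome 4 from 150865683 to 150865801 (7.78-fold, 39 reads), chromosome 5 from 108338633 to 108338847 (10.5-fold, 27 reads) and chromosome 11 from 9565711 to 9565822 (3.44-fold, 85 reads) were in neither 2 h list. The peak on chromosome 2 from 156827296 to 156827450 (4.02-fold, 63 reads) was found again in the knockdown at 2 h. Of all 35 TUBG-shRNA-only arm peaks, 27 (77.1%) were in neither 2 h list. The arm peaks with the highest fold enrichment in this class also included one on chromosome 6 from 98865927 to 98866038 (8.48-fold, 19 reads) and one on chromosome 1 from 248419315 to 248419458 (8.28-fold, 21 reads). Both stood on a background at or near the lowest of their list, 1.36 and 1.66 reads. The chromosome 5 peak (10.5-fold) also stood on 1.66 reads.

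At the chromosome starts, 6 MCF10A arm peaks lay within 1 Mb of the chromosome start, 3 on chromosome 1 and 3 on chromosome 5. No TUBG-shRNA-MCF10A peak did at 1 h. The 3 on chromosome 5 lay within 1.08 kb, and 2 of them were listed in TUBG-shRNA-MCF10A at 2 h and 1 in MCF10A at 2 h. Of the 3 on chromosome 1, 0 were listed in TUBG-shRNA-MCF10A at 2 h and 2 in MCF10A at 2 h. The opposite ends of the chromosomes were not counted. The first on chromosome 1 ran from 10064 to 10187 and the first on chromosome 5 from 10102 to 10441, in the outermost sequenced part of the chromosome.

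The 2 h lists were not used to make the classes, but the 1 h lists of the same cell populations were. The 2 h lists held common peaks at a higher share than peaks of 1 population only. For the MCF10A peaks in MCF10A at 2 h, however, the intervals overlapped. In pericentromeres alone, they also overlapped there for the TUBG-shRNA-MCF10A peaks. The classes are compared within each 2 h list. Of all 1 h MCF10A peaks, 78.9% were listed in MCF10A at 2 h and 38.9% in TUBG-shRNA-MCF10A at 2 h, and of all 1 h TUBG-shRNA-MCF10A peaks, 73.5% and 60.0% were. The 2 h lists were of very different length, with 2312 autosomal peaks for MCF10A and 341 for the knockdown, and the longer was called with a fragment length of 47 bp, so its shares are not comparable with those of the other.

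Of the 332 MCF10A-only peaks, 254 (76.5%, 71.7 to 80.7) were found in MCF10A at 2 h and 75 (22.6%, 18.4 to 27.4) in TUBG-shRNA-MCF10A at 2 h. Of the 143 common peaks in the MCF10A list, 121 (84.6%, 77.8 to 89.6) and 110 (76.9%, 69.4 to 83.1) were. Within the 1 list of TUBG-shRNA-MCF10A at 2 h, the common peaks were found more often than the MCF10A-only peaks, with intervals that did not overlap. Common peaks were by definition called in these cells at 1 h and MCF10A-only peaks were not. The difference is therefore no independent support for the classes. Most MCF10A-only peaks, absent from the knockdown list at 1 h by definition, were not listed there at 2 h either. Of them, 72 (21.7%) were listed in both populations at 2 h.

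Of the 112 TUBG-shRNA-only peaks, 68 (60.7%, 51.5 to 69.3) were listed in MCF10A at 2 h and 42 (37.5%, 29.1 to 46.7) in TUBG-shRNA-MCF10A at 2 h. Of the 148 common peaks in the TUBG-shRNA-MCF10A list, 123 (83.1%, 76.3 to 88.3) and 114 (77%, 69.6 to 83.1) were. In pericentromeres alone, the classes were alike in MCF10A at 2 h. There it listed 119 of 143 common peaks (83.2%, 76.2 to 88.5) and 62 of 77 TUBG-shRNA-only peaks (80.5%, 70.3 to 87.8). In neither 2 h list were 75 MCF10A-only peaks (22.6%) and 36 TUBG-shRNA-only peaks (32.1%).

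The shares of the unshared peaks also differed by location. In pericentromeres, 222 of 267 MCF10A-only peaks (83.1%) and 62 of 77 TUBG-shRNA-only peaks (80.5%) were listed in MCF10A at 2 h, with overlapping intervals. In TUBG-shRNA-MCF10A at 2 h, 70 of 267 (26.2%, 21.3 to 31.8) and 38 of 77 (49.4%, 38.5 to 60.3) were. On the arms, 32 of 65 MCF10A-only peaks (49.2%, 37.5 to 61.1) and 6 of 35 TUBG-shRNA-only peaks (17.1%, 8.10 to 32.7) were listed in MCF10A at 2 h. In TUBG-shRNA-MCF10A at 2 h, 5 of 65 (7.69%, 3.33 to 16.8) and 4 of 35 (11.4%, 4.54 to 26) were, with overlapping intervals. Where intervals did not overlap, the higher class was by definition called in that population at 1 h. Those differences are therefore no independent support for the classes. In no 2 h list were 27 of the 35 TUBG-shRNA-only arm peaks (77.1%, 61.0 to 87.9). Of the MCF10A-only arm peaks, 32 of 65 (49.2%, 37.5 to 61.1) were in none, and the intervals overlapped slightly. In pericentromeres, 9 of 77 TUBG-shRNA-only (11.7%) and 43 of 267 MCF10A-only peaks (16.1%) were in none. With an overlap of at least 50%, 43.7% of the MCF10A-only and 33.9% of the TUBG-shRNA-only peaks were in MCF10A at 2 h. With summits within 1 kb, an alternative added after the data were seen, 47.3% of the MCF10A-only peaks were in TUBG-shRNA-MCF10A at 2 h.

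**Figure D5:**
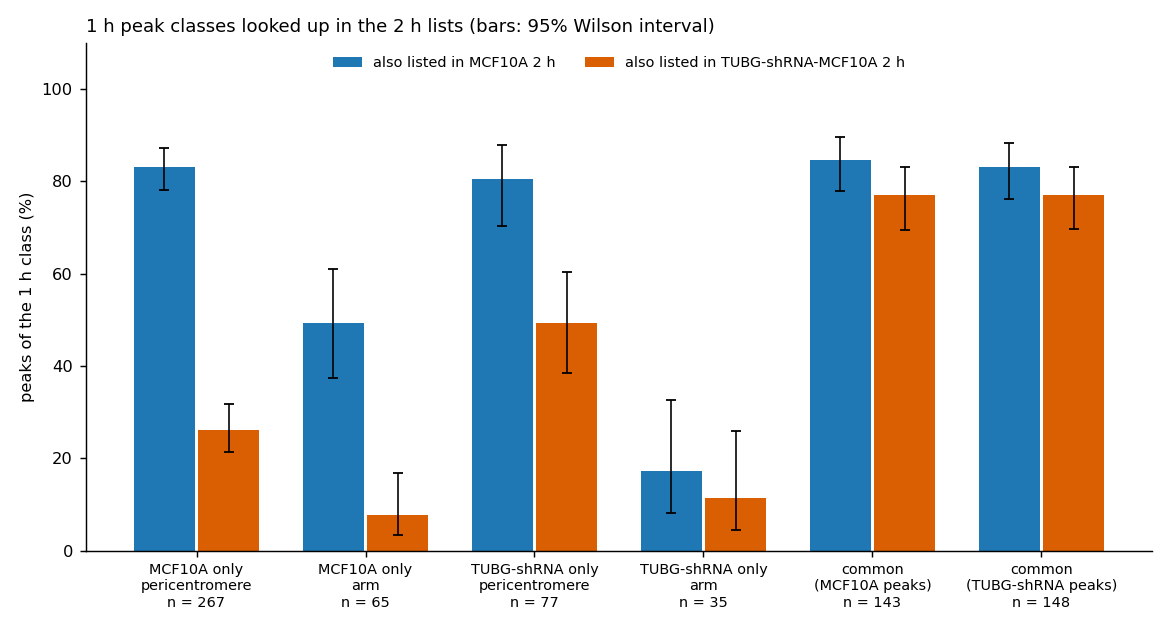
Percentage of each 1 h class that overlapped a peak (at least 25% of both) in the 2 h list of MCF10A (blue) and of TUBG-shRNA-MCF10A (orange), for peaks in 1 population only by location and for common peaks as listed in each population. Bars carry 95% Wilson intervals and n is the number of 1 h peaks. In MCF10A at 2 h are 84.6% of the common MCF10A peaks (all locations) and 83.1% of the pericentromeric MCF10A-only peaks. In TUBG-shRNA-MCF10A at 2 h the shares are 76.9% and 26.2%, where common peaks were by definition called in these cells at 1 h. Shares are not comparable between the 2 h lists.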

How the data were processed

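Peak lists were used as deposited, 1 per condition, each pooling both ChIP libraries. The authors called the peaks with MACS2 (version 2.1.1), after mapping with Bowtie (1.0.0) to hg19, as the submitters' processing notes name these tools. The deposited files hold the fold enrichment at the summit (a ratio over local background), −log10 p-values and −log10 q-values, and a score, which the authors' peak caller derives from the q-value and which was not used. No genes or sequences were assigned, since no annotation of hg19 was used here. Reads at the summit and the background were derived by solving for the fold enrichment (pseudocount 1) and the Poisson p-value (tolerance 0.0003 in −log10) for 100% of peaks. Centromere gaps of hg19, with the heterochromatin adjoining them on chromosomes 1, 9 and 16, were entered by hand, and 0 of the 3388 autosomal peaks of the 4 lists lay in one.

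Python 3.11.15, numpy 2.4.6, pandas 2.3.3, scipy 1.17.1 and matplotlib 3.10.9 were used. On simulated data, 200 of 200 overlaps above the minimum, 0 of 200 below it, 500 of 500 summit heights and 100 of 100 joined regions were recovered. Members, stretches and rules were chosen with earlier results of these data known. Named peaks were, per class, the top 5 by −log10 q-value (for pairs, the smaller value), the 3 highest and 3 lowest fold ratios, the 3 arm peaks with the highest fold enrichment per class, and the 3 fullest stretches of 1 Mb. Further stretches and the peaks at chromosome starts were chosen after their values were seen. Depth is known only at peaks. The alternatives were other q-values, overlaps, distances, joined peaks, covered length, equal lists and left-out chromosomes.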

Additional observations from a re-analysis of the deposited data

Results flagged for a closer look

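Peaks outside the autosomes were not used in the comparison. On chromosomes X and Y together, the 1 h lists held 87 peaks in MCF10A (15.5% of 562 peaks, 95% Wilson interval 12.7 to 18.7) and 30 in TUBG-shRNA-MCF10A (10.3% of 290, 7.34 to 14.4). They drew attention because they are a signal in data that the comparison left out.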

How the results depend on the processing

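Of 243 alternative values for 48 results, 148 stayed within the counting interval of the main value (peak numbers within 1.5 times) and 95 moved further. A change of side about 1 was looked for in ratios alone, and 0 of them changed. Comparisons between these values could still turn round, as they did in the MCF10A list with the centromere gap alone. No paired analysis was possible because the libraries of a condition share 1 list, and for the same reason no library could be left out. The cause of a move was not tested unless the alternative's construction gives it. Values are in the order MCF10A and TUBG-shRNA-MCF10A list.

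A q-value of at most 1e-05 left 147 TUBG-shRNA-MCF10A peaks, with ratios of 2.48 on autosomes and 2.62 in pericentromeres, and common shares of 20.9% in MCF10A and 23.9% in its pericentromeres. At 1e-10, 168 and 55 peaks remained (ratio 3.05), with 15.5% and 49.1% common. In base pairs covered, 97344 and 43752 bp at median widths of 168 and 146.5 bp, the ratio was 2.22. Joining peaks within 1 kb left 240 and 166 regions, ratios of 1.45 overall and 1.37 in pericentromeres, and common shares of 16.7% and 24.7% (20.7% and 29.1% in pericentromeres). Of these regions, 90.0% and 90.2% of the common and 69.0% of the MCF10A-only ones were pericentromeric. With lists of equal length, 32.3% of TUBG-shRNA-MCF10A peaks were common. Without chromosome 4, 48.5% of them were common, 56.9% in pericentromeres, and 74.8% of MCF10A-only peaks were pericentromeric. Without chromosome 16, added after the data were seen, 24.3% of MCF10A peaks were common, 28.0% in pericentromeres.

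A pericentromere of 2 Mb held 93.0% of the common and 72.9% of the MCF10A-only MCF10A peaks. The centromere gap alone, also added later, moved chromosome 16 peaks to the arm by construction. Pericentromeres then held 69.2% and 68.9% of common, 75.6% of MCF10A-only and 58.0% of TUBG-shRNA-only peaks, and 28.3% of pericentromeric MCF10A peaks and 35.2% and 49.5% of arm peaks were common. In MCF10A, common peaks were thus less often pericentromeric than MCF10A-only peaks, and arm peaks more often common than pericentromeric ones, the opposite of the main order, with overlapping intervals. With neighbors within 1 kb, 83.9% and 64.9% of common and 52.4% and 36.6% of unshared peaks had one. With neighbors in either list, 100% of common peaks did by construction.

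Restricted to arms, median fold enrichment was 2.71 and 2.82 for common peaks, only 4 and 5 in number, and 4.31 and 4.85 for unshared peaks. Median background was 30.6 reads for the 5 common TUBG-shRNA-MCF10A peaks and 5.90 and 5.80 reads for unshared peaks. In MCF10A at 2 h were 3 of the 4 common MCF10A arm peaks (75%, 30.1 to 95.4), too few to compare with the unshared ones. Of those, 49.2% of the MCF10A-only and 17.1% of the TUBG-shRNA-only arm peaks were there. In TUBG-shRNA-MCF10A at 2 h were 7.69% and 11.4% of the unshared arm peaks. Restricted to pericentromeres, unshared peaks had a median fold enrichment of 3.18 and 2.27, and TUBG-shRNA-only peaks a background of 30.6 reads. Of these unshared peaks, 83.1% and 80.5% were in MCF10A at 2 h, and 49.4% of the TUBG-shRNA-only ones in TUBG-shRNA-MCF10A at 2 h.

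At an overlap of 50%, 23.8% and 43.5% of peaks were common. In MCF10A at 2 h were then 59.4% and 43.2% of common and 43.7% and 33.9% of unshared peaks, and in TUBG-shRNA-MCF10A at 2 h 59.4% and 64.2% of common and 16% of MCF10A-only peaks. An overlap of 1 bp put 99.3% and 99.3% of common and 81.9% of MCF10A-only peaks in MCF10A at 2 h. With summits within 1 kb, 53.5% and 70.4% were common. The 2 h look-up by summits, added after the data were seen, put 99.3% and 99.3% of common and 87.0% and 71.4% of unshared peaks in MCF10A at 2 h, and 89.5% and 89.9% of common and 47.3% and 50% of unshared peaks in TUBG-shRNA-MCF10A at 2 h. Library depth is unknown, so its part in which weak peaks were called was not tested, and repeats missing from the assembly limit what a pericentromeric position means.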

Other observations

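Among the 5 MCF10A-only peaks with the highest −log10 q-values, those on chromosomes 5 and 12 have the same last 7 digits in their start and end, 49438307 to 49438450 and 79438307 to 79438450, and the same width of 144 bp. Their fold enrichments, 3.26 and 10.1, and their backgrounds, 41.3 and 2.95 reads, differ. The positions are as deposited.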
